A study of Mus musculus with 30 samples.

Results

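The endothelium of brain vessels passes nutrients to the brain through carrier proteins in its plasma membrane, and 8 genes of these carriers were followed here out of 18194 genes covered by the array. They are Slc2a1 (glucose), Slc16a1 (lactate and ketone bodies), Slc7a5 with its partner chain Slc3a2 (large neutral amino acids), Slc7a1 (cationic amino acids), Slc38a3 and Slc38a5 (glutamine and related amino acids) and Tfrc (transferrin-bound iron). The genes were chosen by name, and each was read from every probe set that the array annotation pairs with it alone, the one with the highest mean signal being used for the tests. That gave 19 probe sets, of which 18 exceeded a log2 signal of 4 on at least 3 of 30 arrays. All 8 genes passed this filter, as did 11243 of all genes.

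Brain microvascular fragments, small pieces of vessel that hold endothelium, mural cells and attached glial remnants, had been isolated from mice that lack part of their pericytes because platelet-derived growth factor B (PDGF-B) signalling is reduced. Ret mutants (pdgfbret/ret, C57/B6/J, 7 or 10 months old) are homozygous for a PDGF-B without its retention motif, and their controls (pdgfbret/+, same strain, 8 or 10 months) carry 1 such allele. R26P mutants (Tie2Cre, R26P+/0, pdgfb-/-) lack endogenous PDGF-B and make it from 1 copy of a human transgene in the Rosa 26 locus, switched on by Cre under the Tie2 promoter, which is active in endothelium and in blood cell lineages. R26P controls (R26P+/0, pdgfb+/+) carry the same transgene copy in its silent state. Both R26P groups are on a mixed C57/SV129 background, and their age is given as 1 year in the titles and as 2 months in another label. Wild-type mice (Notch3+/+, C57/B6/J) were 2 months old. Cerebellum and cerebrum were sampled separately in the R26P and wild-type mice, and no region is named for the ret mice. There were 4 arrays in each ret and R26P group and 3 in each wild-type group, all labelled as biological replicates.

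Several arrays stood apart from their labels or their group. The X-inactivation gene Xist and the Y-linked Eif2s3y went against the sex label on 4 of 4 ret control arrays and on 0 of the arrays of every other group. Over the 238 genes that differed between the wild-type regions, cerebellum minus cerebrum in the wild-type direction had a median of 0.14 in R26P mutant animal 3 and of 0.47 to 1.33 in the other R26P animals, so the region labels of that animal are unsettled. Pituitary transcripts (mean log2 signal of 8 marker genes) read 10.47, 9.54 and 11.85 on ret mutant arrays 1, 2 and 4, and 3.52 on ret mutant array 3, against 3.23 to 3.75 in ret controls. In the R26P model the same mean was 3.39 to 11.48 in mutant cerebrum and 4.02 to 9.21 in control cerebrum, and R26P mutant cerebellum 3 read 10.58. Wild-type cerebrum 3 read 8.46, with 3.07 to 4.66 on the other wild-type arrays. The wild-type arrays had been normalized apart from the other 24 (lowest value 2.17 against 2.16), so wild-type levels are compared only between their own regions.

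Glucose enters the brain by facilitated diffusion through the Slc2a1 protein, lactate moves with a proton through the Slc16a1 protein, and the Slc7a5 protein works only when joined to the Slc3a2 chain, exchanging one amino acid for another. Tfrc binds iron-loaded transferrin in blood and is taken up with it, and Tfrc mRNA is stabilised when a cell is short of iron. Pericytes, which share the basement membrane with the endothelium, are known to be needed for several properties of the barrier.

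Promoters are shown only for members that passed in a mutant comparison of the main fit below, on the signals as deposited. Of these members, the RefSeq table of promoters (build GRCm38.p6) holds Slc16a1, Slc38a5 and Tfrc. Their 250 bases before the annotated start are shown because the 3 genes did not move alike. Windows were found for 6 of the 8 members, and Slc7a5 and Slc38a3 are named only. Capitals mark matches, on either strand, to the motifs searched: ACGTG, the core that hypoxia-inducible factors bind, TATAAA, the TATA box, CTTTGA, bound by the TCF factors of Wnt signalling, TGACGTCA, the cAMP response element, and CCGGAA, bound by ETS factors.
Slc16a1, chr3:104638414-104638663, plus strand: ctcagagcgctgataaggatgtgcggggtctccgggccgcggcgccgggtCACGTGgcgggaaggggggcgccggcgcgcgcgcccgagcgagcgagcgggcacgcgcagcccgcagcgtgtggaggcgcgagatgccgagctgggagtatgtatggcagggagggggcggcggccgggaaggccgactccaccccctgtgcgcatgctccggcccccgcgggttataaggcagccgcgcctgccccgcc
Slc38a5, chrX:8271131-8271380, plus strand: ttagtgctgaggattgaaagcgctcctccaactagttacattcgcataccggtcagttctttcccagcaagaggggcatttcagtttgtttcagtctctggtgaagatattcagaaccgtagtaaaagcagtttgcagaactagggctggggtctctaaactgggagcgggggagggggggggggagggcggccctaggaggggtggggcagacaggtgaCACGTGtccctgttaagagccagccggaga
Tfrc, chr16:32608646-32608895, plus strand, first of 2 annotated starts: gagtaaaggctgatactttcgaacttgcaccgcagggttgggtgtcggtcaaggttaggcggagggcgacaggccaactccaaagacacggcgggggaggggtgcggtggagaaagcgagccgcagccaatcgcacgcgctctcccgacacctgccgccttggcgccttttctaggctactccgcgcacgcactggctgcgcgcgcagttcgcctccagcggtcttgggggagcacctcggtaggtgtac
The Slc16a1 and Slc38a5 windows each hold CACGTG, which reads as ACGTG on both strands, a motif present in 16.6% of all 32851 promoter windows of this length. None of the 5 motifs is in the window printed for Tfrc, while the window of the other annotated Tfrc start, chr16:32608872-32609121, holds 1 ACGTG. CG dinucleotides number 37 in the Slc16a1 window, 25 in the Tfrc window and 8 in the Slc38a5 window, against a median of 6 over all windows. These matches describe letters only, and binding was not measured.

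In the vessels of pericyte-deficient mice, Slc38a3 and Tfrc signals fell in ret mutants, and Slc16a1, Slc38a3 and Tfrc fell while Slc38a5 rose in the R26P mutant cerebrum. In the R26P mutant cerebellum Slc16a1 fell and the other 7 members did not pass. Slc2a1, Slc7a5, Slc7a1 and Slc3a2 did not pass in any mutant comparison on the signals as deposited. Over the 8 members, 2 fell and 0 rose in ret mutants, 3 fell and 1 rose in R26P mutant cerebrum, and 1 fell and 0 rose in R26P mutant cerebellum, at an adjusted p below 0.05. The same threshold was passed by 16.6% of all tested genes in ret mutants (8.63% lower, 8% higher), 18.7% in R26P mutant cerebrum (10.3% lower, 8.35% higher) and 15.6% in R26P mutant cerebellum (8.7% lower, 6.94% higher). The median log2 change of the members was -0.17, -0.26 and -0.07 in that order, beside 0.01, 0.01 and 0 over all tested genes. The groups did not overlap for 3 members in ret mutants, 4 in R26P mutant cerebrum and 3 in R26P mutant cerebellum, as for 23.5%, 25.9% and 22.8% of all genes.

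**Figure D1:**
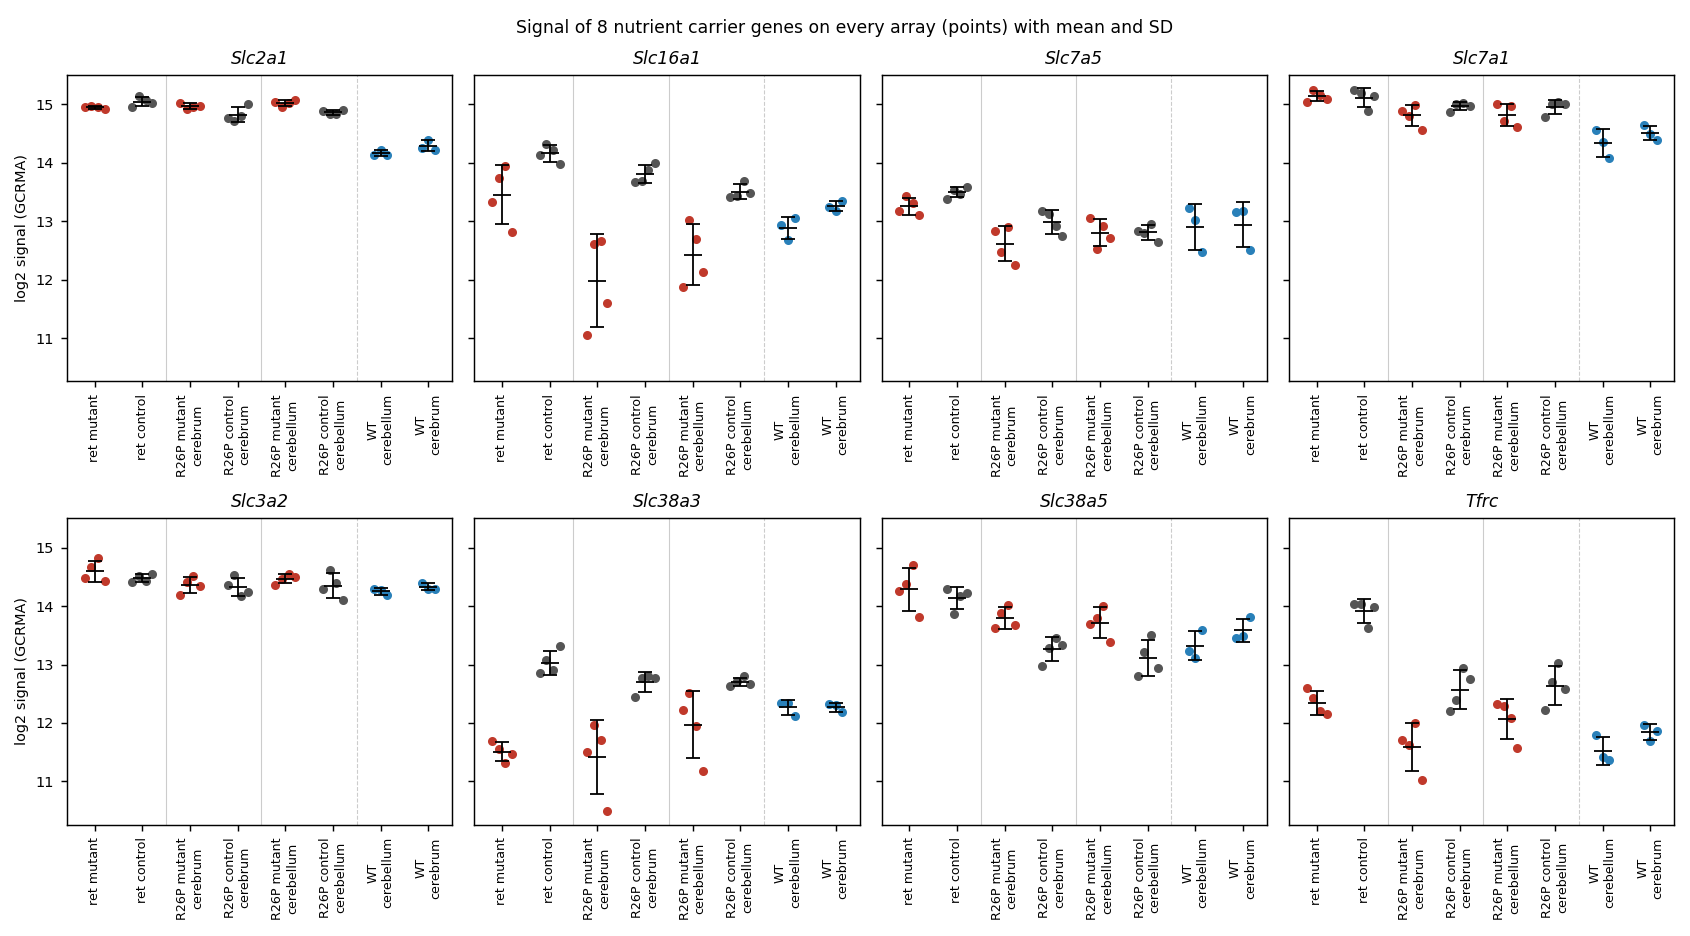
Log2 GCRMA signal (vertical axis) of the 8 carrier genes on each array, by group (horizontal axis), with red points for mutants, grey for their controls, blue for wild type, and black bars for mean and SD. Slc38a3 and Tfrc lie lower in the 4 ret mutants (11.32 to 11.70 and 12.15 to 12.60) than in the 4 ret controls (12.85 to 13.31 and 13.62 to 14.03), and Slc2a1 spans 14.92 to 15.07 in all mutants. Wild-type arrays, right of the dashed line, were normalized apart and are not comparable in level with the others.

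Slc2a1 encodes GLUT1, the main glucose carrier of the barrier. It had log2 signals of 14.95, 14.97, 14.96 and 14.92 in ret mutants, against 14.96, 15.15, 15.07 and 15.02 in ret controls. These overlap, and the log2 change was -0.10 (95% interval -0.25 to 0.04, adjusted p = 0.29). In cerebrum the R26P mutants had 15.03, 14.92, 14.96 and 14.98, against 14.77, 14.72, 14.80 and 15.01 in R26P controls. Control 4 lies among the mutants, and the log2 change of 0.15 (-0.04 to 0.34) did not pass (adjusted p = 0.25). In cerebellum the R26P mutants had 15.05, 14.95, 15.03 and 15.07, against 14.89, 14.83, 14.83 and 14.90 in R26P controls. Here each mutant is above each control, by 0.16 ± 0.06 log2 units (SE, adjusted p = 0.11). The 95% interval of this difference was 0.02 to 0.31. The gene's other 2 probe sets had log2 changes of 0.04 and -0.08 in ret mutants, 0.18 and 0.19 in R26P mutant cerebrum, and 0.36 and 0.25 in R26P mutant cerebellum. None of these 6 values passed over the 18851 probe sets tested, of which 14.6%, 15.2% and 12.7% passed in the 3 comparisons.

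Slc16a1 encodes MCT1, which carries lactate and ketone bodies. Its largest differences were in R26P mutant cerebrum, with 11.05, 12.61, 12.67 and 11.60, against 13.68, 13.69, 13.87 and 14 in R26P controls. All 4 mutants lie below all controls, and the mutants differ among themselves by more than a log2 unit. The change was -1.83 ± 0.36 (SE, adjusted p = 0.012), a 3.55-fold lower signal. In cerebellum the R26P mutants had 11.88, 13.02, 12.69 and 12.13, against 13.42, 13.43, 13.69 and 13.49 in R26P controls. The groups are again apart, animals 1 and 4 are the lower mutants in both regions, and the signal was 2.11-fold lower (log2 change -1.08 ± 0.24, adjusted p = 0.022). Leaving out control 1, 2 or 3, or mutant 4, ended the cerebellum call (adjusted p up to 0.053), while the cerebrum call kept an adjusted p of at most 0.035 without any 1 array. Ret mutants had 13.33, 13.74, 13.95 and 12.81, against 14.13, 14.32, 14.22 and 13.98 in ret controls. Ret mutant 3 lies closest to the controls and ret mutant 4 farthest. Ret mutant 4 stands apart from the other ret mutants in several marker means, with pituitary 11.85 (others 3.52 to 10.47), choroid plexus 10.90 (8.24 to 8.95), neuron 6.38 (4.11 to 5.03), fibroblast 8.88 (7.05 to 7.43) and endothelium 13.13 (13.38 to 13.44), and their part in the Slc16a1 signal was not tested. The change of -0.71 ± 0.24 did not pass (adjusted p = 0.081), it did without ret mutant 3 (adjusted p = 0.048), and it was -0.49 without ret mutant 4 (adjusted p = 0.085). With the pituitary mean as a covariate, a fit that rests largely on ret mutant 3, it was -0.10 (adjusted p = 0.87). A second probe set read 2.65 to 3.40 in ret mutants and 4.17 to 5.96 in ret controls, and was lower (log2 change -2.34, adjusted p = 0.0067). It was below 4 on every R26P array and did not pass there. Since it passed the filter only through the ret controls, its lower signal in ret mutants is partly built in.

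Slc7a5 encodes LAT1, the carrier of large neutral amino acids and of L-DOPA. Ret mutants had 13.18, 13.43, 13.32 and 13.10, against 13.39, 13.54, 13.47 and 13.58 in ret controls. Mutants 1, 3 and 4 lie below every control and mutant 2 does not, with a log2 change of -0.24 (-0.45 to -0.03, adjusted p = 0.12). In cerebrum the R26P mutants had 12.83, 12.48, 12.90 and 12.26, against 13.17, 13.12, 12.92 and 12.74 in R26P controls (log2 change -0.37, -0.76 to 0.02, adjusted p = 0.16). R26P mutant cerebellum had 13.06, 12.53, 12.92 and 12.71, against 12.84, 12.80, 12.95 and 12.65 in R26P controls. Mutants lie on both sides of the controls there, and the log2 change was 0 (-0.30 to 0.29, adjusted p = 0.99).

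Slc3a2 encodes the heavy chain that brings Slc7a5 to the cell surface. Its values were 14.48, 14.67, 14.82 and 14.43 in ret mutants, against 14.41, 14.52, 14.43 and 14.55 in ret controls (log2 change 0.12, -0.11 to 0.35, adjusted p = 0.44). In cerebrum they were 14.19, 14.41, 14.52 and 14.35 in R26P mutants, against 14.36, 14.53, 14.18 and 14.24 in R26P controls (0.04, -0.20 to 0.29, adjusted p = 0.80). In cerebellum they were 14.37, 14.46, 14.55 and 14.50 in R26P mutants, against 14.29, 14.62, 14.40 and 14.10 in R26P controls (0.12, -0.15 to 0.39, adjusted p = 0.51). The groups overlap in all 3 comparisons. Across the 24 arrays of both models the correlation between the 2 chains was 0.44 (0.33 after group means were removed).

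Slc7a1 encodes CAT1, the carrier of arginine and lysine. Ret mutants had 15.05, 15.24, 15.17 and 15.09, against 15.24, 15.19, 14.89 and 15.15 in ret controls, which overlap (log2 change 0.02, -0.20 to 0.24, adjusted p = 0.89). In cerebrum the R26P mutants had 14.89, 14.81, 14.99 and 14.56, against 14.87, 15.01, 15.02 and 14.97 in R26P controls (-0.16, -0.40 to 0.08, adjusted p = 0.32). R26P mutant cerebellum had 15, 14.72, 14.97 and 14.61, against 14.78, 15, 15.04 and 15 in R26P controls (-0.13, -0.39 to 0.13, adjusted p = 0.47). Mutant animal 4 was the lowest mutant in both regions, and mutants and controls overlapped. The second probe set did not pass in any of the 3, and the third was at the lowest value on all 30 arrays.

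Slc38a3 encodes SNAT3, a sodium-coupled glutamine carrier that astrocytes also make. Ret mutants had 11.70, 11.55, 11.32 and 11.47, against 12.85, 13.07, 12.91 and 13.31 in ret controls. The groups are more than a log2 unit apart, and the signal was 2.87-fold lower (log2 change -1.52 ± 0.13, adjusted p = 0.00043). In cerebrum the R26P mutants had 11.50, 11.96, 11.71 and 10.50, against 12.44, 12.77, 12.81 and 12.77 in R26P controls. Every mutant lies below every control, mutant 4 lowest, and the signal was 2.43-fold lower (-1.28 ± 0.29, adjusted p = 0.022). Leaving out control 2, 3 or 4 ended this call (adjusted p up to 0.057). R26P mutant cerebellum had 12.22, 12.52, 11.95 and 11.18, against 12.63, 12.72, 12.80 and 12.66 in R26P controls. The mutants are again lower without overlap and mutant 4 is lowest, but the change of -0.73 ± 0.26 did not pass (adjusted p = 0.096). The second probe set was lower in ret mutants, at 3.64 to 3.76, than in ret controls, at 4.12 to 4.51 (log2 change -0.65, adjusted p = 0.0041). Its changes of -0.68 in R26P mutant cerebrum and -0.64 in R26P mutant cerebellum did not pass (adjusted p = 0.07 and 0.13).

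Slc38a5 encodes SNAT5, a related glutamine carrier, and it was the only member that rose in any mutant comparison. In cerebrum the R26P mutants had 13.63, 13.88, 14.02 and 13.67, against 12.98, 13.29, 13.45 and 13.34 in R26P controls. All mutants lie above all controls, and the signal was 1.45-fold higher (log2 change 0.53 ± 0.13, adjusted p = 0.029). Leaving out control 1, 2 or 4, or mutant 2 or 3, ended this call (adjusted p up to 0.071, and 0.06 without mutant 3). In cerebellum the R26P mutants had 13.69, 13.80, 14.01 and 13.38, against 12.80, 13.22, 13.50 and 12.95 in R26P controls. Mutant 4 lies below control 3, and the change of 0.60 ± 0.19 did not pass (adjusted p = 0.067), although it did without control 3 (0.036) or mutant 4 (0.048). Ret mutants had 14.26, 14.38, 14.70 and 13.81, against 14.29, 13.87, 14.17 and 14.23 in ret controls. The mutants span the controls on both sides (log2 change 0.15, -0.29 to 0.59, adjusted p = 0.63).

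Tfrc, the transferrin receptor, had 12.60, 12.42, 12.21 and 12.15 in ret mutants, against 14.03, 14.03, 13.62 and 13.99 in ret controls. The groups lie a log2 unit apart, and the signal was 2.97-fold lower (log2 change -1.57 ± 0.14, adjusted p = 0.0005). In cerebrum the R26P mutants had 11.71, 11.63, 12 and 11.02, against 12.20, 12.39, 12.95 and 12.75 in R26P controls. The groups are close but do not overlap, and the signal was 1.97-fold lower (-0.98 ± 0.24, adjusted p = 0.027). The call ended when control 2, 3 or 4, or mutant 1 or 2, was left out (adjusted p up to 0.069), and with replicate number as a block (0.055). In cerebellum the R26P mutants had 12.33, 12.29, 12.09 and 11.58, against 12.22, 12.71, 13.03 and 12.58 in R26P controls. Control 1 lies below mutants 1 and 2, and the change of -0.56 ± 0.22 did not pass (adjusted p = 0.12).

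The 6 probe sets of Tfrc all had lower signals in ret mutants than in ret controls and passed the test, with log2 changes between -1.57 and -4.33. The fifth probe set by mean signal read 2.16 to 3.15 in ret mutants and 6.29 to 7.37 in ret controls, so its change of -4.33 ends near the lowest value the arrays can show. The probe set with the second highest mean had means of 6.63 ± 0.81 in ret mutants and 9.96 ± 0.33 in ret controls (SD, n = 4 each, adjusted p = 0.0021). In R26P mutant cerebrum 2 of the 6 passed, the main one and the control probe set for the 3′ part of the transcript (log2 change -1.40, adjusted p = 0.026), and in R26P mutant cerebellum none of the 6 passed. The control probe sets for the middle and the 5′ part read at most 3.03 on every array outside the ret controls. The ret controls, at 4.53 to 5.39 and 3.92 to 4.64, were thus the group in which these parts were seen. These 2 probe sets and the fifth by mean signal passed the filter only through the ret controls. Their lower signal in ret mutants is therefore partly built in and lends no separate support to the other Tfrc probe sets.

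**Figure D2:**
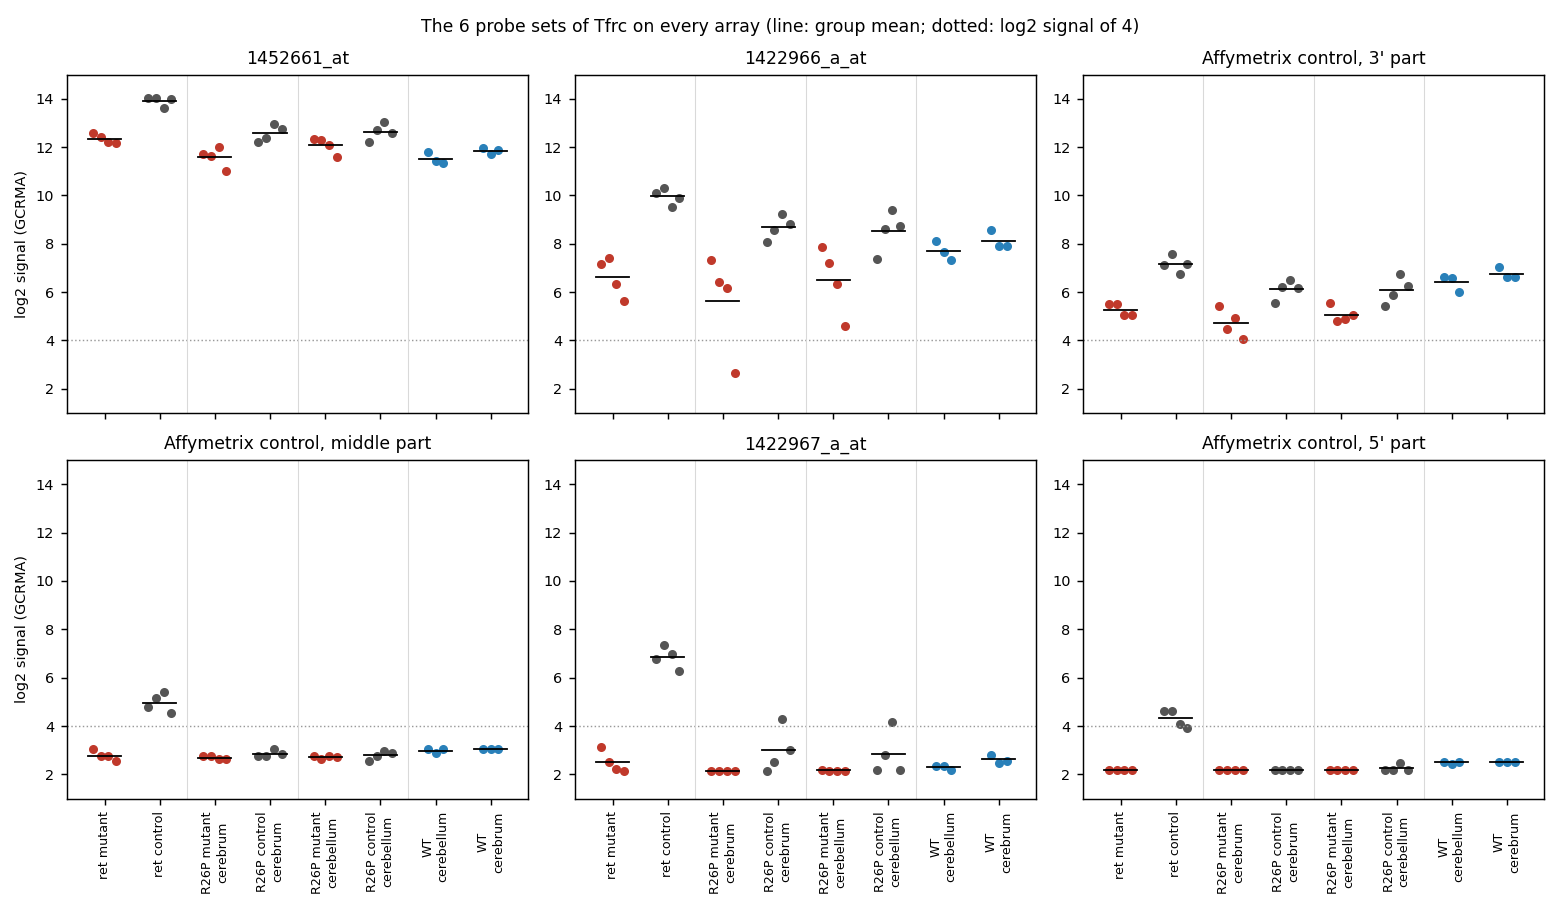
Log2 GCRMA signal (vertical axis) of each of the 6 Tfrc probe sets on each array, by group (horizontal axis), with red points for mutants, grey for their controls, blue for wild type, a line at each group mean and a dotted line at 4. Ret mutants lie below ret controls in all 6 panels, and the 2 panels of the middle and 5′ part stay at or below 3.03 in every other group.

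The 6 ret and R26P groups can be ordered over their common normalization. Slc16a1 had its highest mean in ret controls (14.17 ± 0.14), followed by R26P control cerebrum (13.81 ± 0.15), R26P control cerebellum (13.51 ± 0.12), ret mutants (13.46 ± 0.50), R26P mutant cerebellum (12.43 ± 0.52) and R26P mutant cerebrum (11.98 ± 0.79; SD, n = 4 each), and each neighbour in this order overlaps the next. For Tfrc the ret controls (13.91 ± 0.20) lie above all other groups without overlap, and the following neighbours, R26P control cerebellum (12.63 ± 0.34), R26P control cerebrum (12.57 ± 0.34), ret mutants (12.35 ± 0.21), R26P mutant cerebellum (12.07 ± 0.35) and R26P mutant cerebrum (11.59 ± 0.41), overlap. Slc38a3 was ordered as ret controls (13.03 ± 0.20), R26P control cerebrum (12.70 ± 0.17) and R26P control cerebellum (12.70 ± 0.07), and then R26P mutant cerebellum (11.97 ± 0.57), ret mutants (11.51 ± 0.16) and R26P mutant cerebrum (11.42 ± 0.64). Ret mutants and R26P mutant cerebrum lie below all control arrays, while R26P mutant cerebellum reached 12.52, above R26P control cerebrum 1 at 12.44. Slc2a1 had its highest means in ret controls (15.05 ± 0.08) and R26P mutant cerebellum (15.03 ± 0.05), then R26P mutant cerebrum (14.97 ± 0.05) and ret mutants (14.95 ± 0.02), with R26P control cerebellum (14.86 ± 0.04) and R26P control cerebrum (14.82 ± 0.13) lowest. Slc38a5 was highest in ret mutants (14.29 ± 0.37) and ret controls (14.14 ± 0.19), followed by R26P mutant cerebrum (13.80 ± 0.19), R26P mutant cerebellum (13.72 ± 0.26), R26P control cerebrum (13.26 ± 0.20) and R26P control cerebellum (13.12 ± 0.31). The group means of Slc7a5 ran from 12.62 ± 0.30 in R26P mutant cerebrum to 13.49 ± 0.08 in ret controls, those of Slc7a1 from 14.81 ± 0.18 in R26P mutant cerebrum to 15.14 ± 0.09 in ret mutants, and those of Slc3a2 from 14.33 ± 0.15 in R26P control cerebrum to 14.60 ± 0.18 in ret mutants. The 3′ minus 5′ difference of control probe sets, a measure of RNA degradation, was 1.74 to 2.08 for Actb on ret arrays and 1.30 to 1.73 on R26P arrays. For Gapdh it overlapped, at 2.24 to 2.77 on ret arrays and 2.52 to 3.02 on R26P arrays. Genotype, strain, age, region and the Actb measure all differ between the ret and R26P groups, so their part in the levels cannot be told apart.

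Between regions, no member passed in any comparison. In wild-type mice Slc16a1 read 12.93, 12.68 and 13.05 in cerebellum, against 13.25, 13.18 and 13.35 in cerebrum. All 3 cerebellar values are lower, as they are within each animal number (by 0.32, 0.49 and 0.31), but the log2 change of -0.37 ± 0.11 did not pass over all genes (adjusted p = 0.19, and 0.095 with the animal as a block). Slc2a1 read 14.14, 14.22 and 14.14 in wild-type cerebellum, against 14.26, 14.40 and 14.22 in wild-type cerebrum (log2 change -0.13, adjusted p = 0.43), and Tfrc read 11.79, 11.41 and 11.36 in wild-type cerebellum, against 11.97, 11.70 and 11.86 in wild-type cerebrum (-0.33, adjusted p = 0.33). Slc38a5 read 13.24, 13.12 and 13.60 in wild-type cerebellum, against 13.46, 13.49 and 13.81 in wild-type cerebrum, and was lower in cerebellum in 3 of 3 animals, though the groups overlap (-0.27, adjusted p = 0.48). Slc7a5 (-0.03), Slc7a1 (-0.18) and Slc3a2 (-0.08) had adjusted p-values of 0.97, 0.59 and 0.61. For Slc7a5, animal 3 was low in both regions, at 12.47 in cerebellum and 12.50 in cerebrum, with the other animals between 13.03 and 13.23. Slc38a3 had the same mean of 12.27 in both wild-type regions, and its 95% interval was -0.22 to 0.21. The range of the 8 changes was -0.37 to 0. At an adjusted p below 0.05, 0 of the 8 and 2.12% of all genes passed, and with the animal as a block 0 of the 8 and 135 of 11243 genes. At the looser unadjusted p below 0.05 there was 1 member, and the share of all genes was not computed. The wild-type regions did not overlap for Slc16a1, and met at 14.22 for Slc2a1. They did not overlap for 21.7% of all genes. Without wild-type cerebrum 3, the array with pituitary transcripts, 0 members passed and Slc16a1 had a log2 change of -0.33 (adjusted p = 0.36). In R26P controls, cerebellum against cerebrum, the changes ran from -0.30 (Slc16a1, adjusted p = 0.25, and 0.11 with the animal as a block) to 0.06 (Tfrc). At an adjusted p below 0.05, 0 members and 1.17% of all genes passed, and 1 member had an unadjusted p below 0.05. The share of all genes at that unadjusted threshold was not computed for any region comparison. With the animal as a block, 0 members and 475 of 11243 genes passed in R26P controls. Slc16a1 was the lower one in cerebellum in 4 of 4 control animals. For Slc38a3 and Tfrc the R26P control animals went both ways, by -0.11 to 0.19 and -0.17 to 0.32. In R26P mutants cerebellar Slc16a1 was above cerebral Slc16a1 by 0.83, 0.41, 0.02 and 0.53 in the 4 animals, Slc38a3 by 0.72, 0.56, 0.25 and 0.68, and Tfrc by 0.62, 0.66, 0.09 and 0.56. Animal 3, with its unsettled region labels, has the smallest of each. None passed in the unpaired fit (adjusted p = 1 for each, 0 members at an unadjusted p below 0.05, and 0% of all genes at an adjusted p below 0.05). With the animal as a block 0 members and 0 of 11243 genes passed, the adjusted p in limma being 0.31 for Slc16a1, 0.28 for Slc38a3 and 0.28 for Tfrc.

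Whether the mutant effect itself differed was tested directly. For the R26P effect in cerebellum against that in cerebrum, Slc16a1 had the largest difference, 0.75 ± 0.45 log2 units. None of the 8 passed in limma at an adjusted p below 0.05, where 0.116% of all genes passed, and 0 had an unadjusted p below 0.05. With the animal as a block 0 members and 29 of 11243 genes passed, and the adjusted p was 0.17 for Slc16a1, 0.18 for Slc38a3 and 0.43 for Tfrc. For the ret effect against the R26P effect in cerebrum none passed either at an adjusted p below 0.05, where 3.35% of all genes passed. At the looser unadjusted p below 0.05 there were 2 members, Slc16a1 (1.12 ± 0.45, adjusted p = 0.17) and Slc2a1 (-0.25 ± 0.10, adjusted p = 0.16). The share of all genes at that looser threshold was not computed for either comparison of effects. Under alternative processing the Slc16a1 difference ran from -0.44 to 1.61, so its direction depends on the processing. On the main probe sets, the members that passed in one comparison and not in another are therefore not shown to differ between models or regions. Over all probe sets, the ret effect was lower than the R26P effect in cerebrum for 3 of the 6 Tfrc probe sets, the middle control (-2.04, adjusted p = 0.0007), the fifth by mean signal (-3.50, adjusted p = 0.0043) and the 5′ control (-2.14, adjusted p = 0.00012), and for the second Slc16a1 probe set (adjusted p = 0.042), where 2.93% of all probe sets passed. These 4 probe sets passed the filter only through the ret controls and read at most 4.30 on every R26P cerebrum array. A fall there could hardly show, so their lower ret effect is largely built in and does not show that the models differ. None of the members' probe sets passed for the R26P effect in cerebellum against cerebrum (0.0796% of all probe sets).

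Because the fragments hold several cell types, the carriers were set beside marker genes, and fewer cells of a type cannot be told apart from less RNA per cell in such material. Across 22 endothelial markers the mean signal was 13.13 to 13.44 in ret mutants and 13.18 to 13.45 in ret controls. It was 13.27 to 13.49 in R26P mutants and 13.02 to 13.21 in R26P controls in cerebrum, and 13.37 to 13.48 in R26P mutants and 12.90 to 13.17 in R26P controls in cerebellum. The endothelial mean thus lay higher in the R26P mutants, by 0.23 and 0.37, and by 0.06 in ret mutants. The pericyte receptor Pdgfrb was 9.82-fold, 7.40-fold and 6.43-fold lower in the 3 comparisons (adjusted p = 0.00032, 0.0002 and 0.00047), and 12, 13 and 13 of 13 pericyte markers were lower.

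Relative to the endothelial mean on the same array, more members were lower. In R26P mutant cerebellum 5 of 8 passed, all lower: Slc16a1 (log2 change -1.45), Slc38a3 (-1.10), Tfrc (-0.94), Slc7a1 (-0.50) and Slc7a5 (-0.37, adjusted p = 0.049). This scaling lowers all genes by the shift of the endothelial mean, to a median of -0.37 there, and 52.1% of all genes then passed, 50% as lower. In R26P mutant cerebrum, with a median of -0.22 over all genes and 30.3% of them passing, 26.9% as lower, the members that passed were Slc16a1 (-2.06), Slc38a3 (-1.51), Tfrc (-1.21), Slc7a5 (-0.60) and Slc7a1 (-0.39). Slc38a5 no longer passed there (0.30, adjusted p = 0.13). The share of higher genes among all genes that passed was 11.3% in cerebrum and 4.16% in cerebellum under this scaling, compared with 44.8% and 44.4% on the signals as deposited. Slc7a5 in cerebellum, at -0.37, equals the median of all genes there. Slc2a1 turned from 0.15 to -0.08 in cerebrum and from 0.16 to -0.21 in cerebellum without passing. In ret mutants 3 of 8 passed, Slc16a1 (-0.76, adjusted p = 0.047), Slc38a3 (-1.58) and Tfrc (-1.63), with 12.6% of all genes passing, 7.27% as lower.

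**Figure D3:**
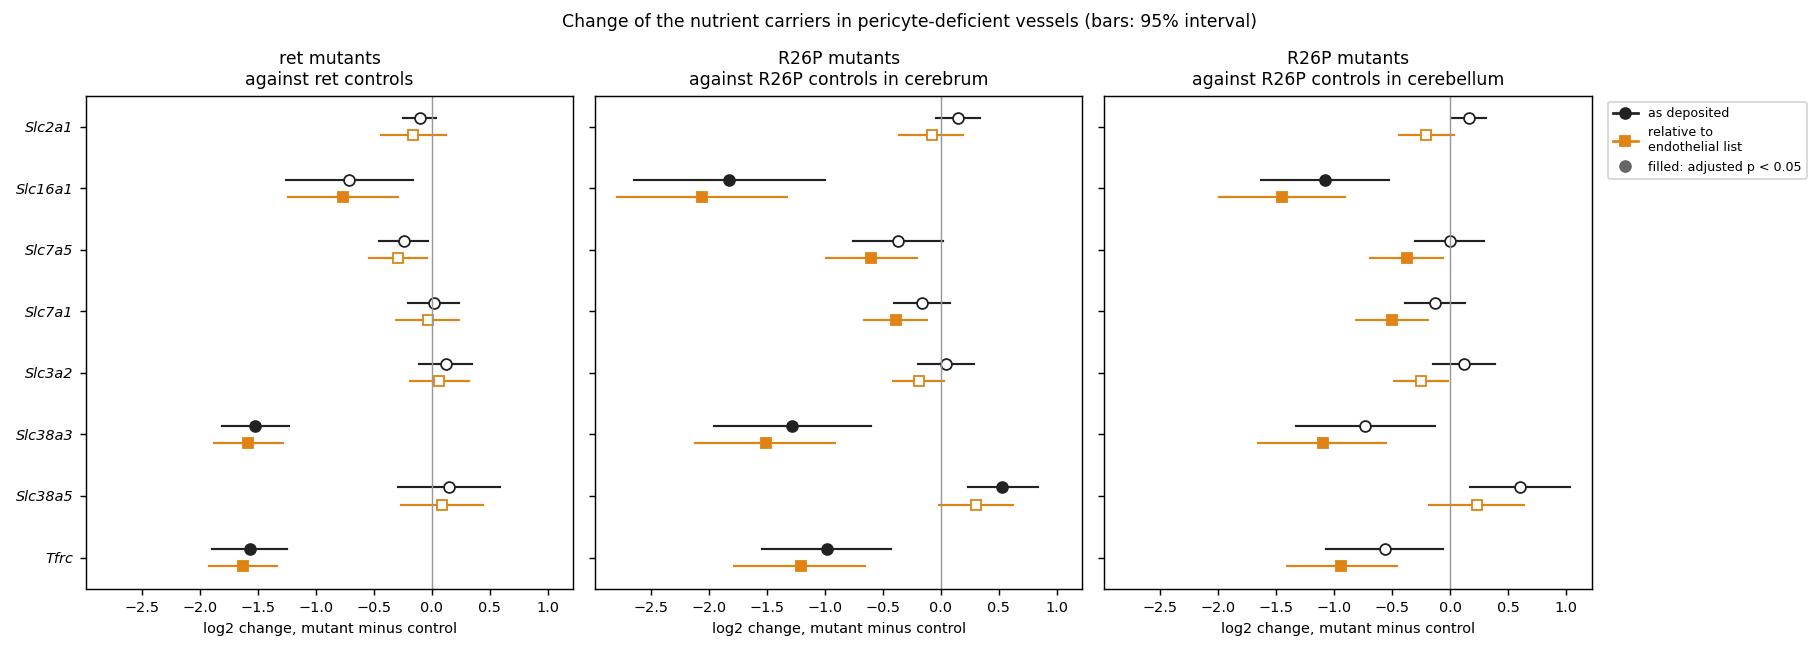
Log2 change, mutant minus control (horizontal axis), of each carrier gene (vertical axis) in the 3 mutant comparisons, with black circles for signals as deposited, orange squares for signals relative to the mean of 22 endothelial markers, 95% intervals as bars and filled symbols for an adjusted p below 0.05. Slc38a3 is at -1.52, -1.28 and -0.73 and Tfrc at -1.57, -0.98 and -0.56 as deposited, and the orange squares lie left of the circles by 0.37 in R26P cerebellum.

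Most astrocyte markers were lower in each of the 3 mutant comparisons. Their mean over 13 genes was 7.55 to 7.99 in ret mutants and 8.60 to 9.17 in ret controls (10 of 13 lower, 0 higher). In cerebrum it was 7.02 to 7.52 in R26P mutants and 9.01 to 9.29 in R26P controls (11 of 13 lower), and in cerebellum 6.95 to 8.26 in R26P mutants and 8.86 to 9.30 in R26P controls (9 of 13 lower). Slc1a2, the astrocyte glutamate carrier, kept signals of at least 10.26 in ret mutants, 9.64 in R26P mutant cerebrum and 7.31 in R26P mutant cerebellum, so astrocyte RNA was present in all groups. Smooth muscle markers were lower in 1, 8 and 3 of 8 in ret mutants, R26P mutant cerebrum and R26P mutant cerebellum, and fibroblast and meningeal markers in 2, 6 and 4 of 9. The smooth muscle mean was 9.58 to 10.52 in R26P mutants and 11.18 to 11.79 in R26P controls in cerebrum, and the fibroblast mean 8.07 to 9.07 in R26P mutants and 9.30 to 10.16 in R26P controls. In ret mutants 2 of 4 blood leukocyte markers and 2 of 5 markers of dividing cells were higher, with means of 4.50 to 5.24 in ret mutants and 2.68 to 3.12 in ret controls for leukocytes, and of 4.33 to 5.41 in ret mutants and 3.75 to 3.85 in ret controls for dividing cells. Microglial and macrophage markers were higher in 2 of 14 in ret mutants and lower in 2 and 1 of 14 in R26P mutant cerebrum and cerebellum. Beside these marker counts, 8%, 8.35% and 6.94% of all tested genes were higher in the 3 comparisons and 8.63%, 10.3% and 8.7% lower. The part of any of these cells in the carrier signals was not tested. For Tfrc, a gene of red cell precursors as well, 8 of 14 listed erythroid markers have a probe set paired with 1 gene alone. The globin genes Hbb-b1 and Hbb-bt are among those without one and were not read. Alas2 read at most 2.50 and Hba-a1, Epb42, Klf1 and Rhag at most 2.18 on every array, at or near the lowest value, and Slc4a1 read at most 3.35. The other 2, Bpgm and Fech, whose enzymes other cells make too, read 9.56 to 10.77 and 10.04 to 10.67 and did not pass in any mutant comparison. The difference between the 3′ and 5′ control probe sets, a measure of RNA degradation, was 1.74 to 1.86 for Actb in ret mutants and 1.80 to 2.08 in ret controls, and 2.24 to 2.61 for Gapdh in ret mutants and 2.33 to 2.77 in ret controls. Both also overlapped between R26P mutants and controls. With the pituitary mean as a covariate, Slc38a3 (log2 change -1.69, adjusted p = 0.0055) and Tfrc (-1.63, adjusted p = 0.01) remained lower in ret mutants. Only ret mutant 3 has a pituitary mean within the range of the ret controls, so this fit rests largely on that array. With ret mutant 3 as the single mutant, the log2 changes of Slc38a3 and Tfrc were -1.72 and -1.71, which rests on the same array and is no separate check.

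The relatives of the carriers gave a mixed picture. Beside the counts here and in the next paragraph, 8% of all tested genes rose and 8.63% fell in ret mutants. The shares were 8.35% and 10.3% in R26P mutant cerebrum, and 6.94% and 8.7% in R26P mutant cerebellum. Of 8 other glucose carrier genes tested, 1 rose and 1 fell in ret mutants, 0 rose and 2 fell in R26P mutant cerebrum, and 1 rose and 1 fell in R26P mutant cerebellum. Slc2a4, the insulin-regulated glucose carrier of muscle and fat, was lower in all 3. The log2 change was -0.22 in ret mutants (3.98 ± 0.05, against 4.21 ± 0.06 in ret controls, adjusted p = 0.041), near the filter level of 4, and -1.34 in R26P mutant cerebrum (adjusted p = 0.016). The means were 4.54 ± 0.50 in R26P mutant cerebellum and 6.0 ± 0.38 in R26P controls (log2 change -1.46, adjusted p = 0.013). Slc2a9, a urate carrier, was higher in ret mutants (4.71 ± 0.32) than in ret controls (3.44 ± 0.16; log2 change 1.27, adjusted p = 0.0027). Of 10 monocarboxylate carrier and partner genes, 1 rose and 1 fell, 1 rose and 3 fell, and 2 rose and 1 fell, in the same order. The creatine carrier Slc16a12 was lower in each, most in R26P mutant cerebellum, at 7.71 ± 0.32 against 9.85 ± 0.21 in R26P controls (4.40-fold, adjusted p = 0.00034). Slc16a6 was 1.97-fold higher in ret mutants (adjusted p = 0.022), Slc16a8 2.96-fold lower in R26P mutant cerebrum (adjusted p = 0.035) and Slc16a13 1.43-fold higher in R26P mutant cerebellum (adjusted p = 0.031). Slc16a9 was higher in R26P mutants in both regions, 1.40-fold in cerebrum and 1.43-fold in cerebellum (adjusted p = 0.012 and 0.03).

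Among 7 other genes of the Slc7 family and its partner, Slc7a2, a second cationic amino acid carrier, was lower in ret mutants (5.66 ± 0.32, against 7.34 ± 0.41 in ret controls, adjusted p = 0.0035), in R26P mutant cerebrum (6.20 ± 0.31, against 8.00 ± 0.42 in R26P controls, adjusted p = 0.002) and in R26P mutant cerebellum (6.68 ± 0.41, against 7.84 ± 0.52 in R26P controls, adjusted p = 0.037). Slc7a7 was higher in ret mutants, 1.77-fold (adjusted p = 0.013), and Slc7a6 in R26P mutant cerebellum, 1.42-fold (adjusted p = 0.037). Of 6 other Slc38 genes, 0 passed in ret mutants and in R26P mutant cerebrum, and Slc38a1, a neuronal glutamine carrier, was 2.37-fold lower in R26P mutant cerebellum (adjusted p = 0.013).

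Of 17 other iron genes, 4 rose and 1 fell in ret mutants, 4 rose and 1 fell in R26P mutant cerebrum, and 2 rose and 0 fell in R26P mutant cerebellum. Over all tested genes 8%, 8.35% and 6.94% rose and 8.63%, 10.3% and 8.7% fell. Cp, which encodes ceruloplasmin, a copper enzyme that oxidises iron on its way out of cells, rose in all 3. It averaged 14.94 ± 0.23 in ret mutants and 13.77 ± 0.14 in ret controls (2.25-fold, adjusted p = 0.0014), and was 2.33-fold higher in R26P mutant cerebrum (adjusted p = 0.0017) and 1.97-fold higher in R26P mutant cerebellum (adjusted p = 0.011). Hmox1, the haem-degrading enzyme, was higher in ret mutants (5.87 ± 0.60) than in ret controls (3.54 ± 0.59, adjusted p = 0.0062). Hfe, a partner of the transferrin receptor, was 1.46-fold higher in ret mutants and 1.44-fold higher in R26P mutant cerebellum (adjusted p = 0.021 and 0.039). Heph, a relative of ceruloplasmin, was 1.96-fold higher in R26P mutant cerebrum (adjusted p = 0.033). Aco1, whose protein without its iron-sulphur cluster binds and stabilises Tfrc mRNA, was 1.39-fold higher in R26P mutant cerebrum (11.08 ± 0.05, against 10.61 ± 0.07 in R26P controls, adjusted p = 0.0034).

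Genes that answer a shortage of amino acids, 17 of them tested, showed 0 that rose in any of the 3 comparisons and 2, 3 and 2 that fell. Over all tested genes 8%, 8.35% and 6.94% rose and 8.63%, 10.3% and 8.7% fell, so these small counts show no response of the list as such. Ddit4 (3.42-fold, adjusted p = 0.021) and Nupr1 (1.83-fold, adjusted p = 0.034) were lower in ret mutants. Vldlr, Phgdh and Psat1, the last pair enzymes of serine synthesis, were lower in R26P mutant cerebrum (adjusted p = 0.019 to 0.036). Atf4, the transcription factor at the head of this response, was lower in R26P mutant cerebellum, at 12.41 ± 0.06 against 12.87 ± 0.13 in R26P controls (1.38-fold, adjusted p = 0.011), as was Nupr1 (1.70-fold, adjusted p = 0.017).

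Over the 24 arrays of both mutant models the members did not form 1 block. Slc38a3 and Tfrc had a Pearson correlation of 0.80 (0.74 after group means were removed), Slc16a1 and Tfrc of 0.77 (0.32) and Slc7a5 and Slc7a1 of 0.76 (0.56), whereas Slc2a1 had correlations between -0.21 and 0.47 with the other members. These describe arrays that share animals, batches and normalization. The genes most alike to Slc38a3 were Mfsd2a, the lipid carrier of the barrier, and Ddc, which makes dopamine from L-DOPA (0.94 each, and 0.80 and 0.78 after group means were removed). Such genes were picked by correlation over the same mutant and control arrays, so a change like that of the member is partly built in. Mfsd2a was 5.45-fold lower in ret mutants and 2.84-fold lower in R26P mutant cerebrum (adjusted p = 2.6e-05 and 0.036). In R26P mutant cerebellum its 1.69-fold lower signal did not pass (adjusted p = 0.11). Ddc was 3.69-fold, 3.30-fold and 2.34-fold lower in the 3 comparisons (adjusted p = 0.0017, 0.011 and 0.013). Those most alike to Tfrc were Reep1 and Mfhas1 (0.91 each, falling to 0.48 and 0.41), and to Slc16a1 the spermine oxidase gene Smox (0.89, falling to 0.55) and Rhobtb3 (0.88, falling to 0.53). Slc3a2 was most like Slc16a4 (0.88) and Gbe1 (0.86), Slc38a5 most like Etv6 and Sptlc2 (0.89 each), Slc7a5 most like Ncoa6 and Glcci1 (0.90 each), Slc7a1 most like Ndnf (0.85) and Zfp445 (0.83), and Slc2a1 most like Sf3b2 (0.82) and Fkbp1a (0.81). Etv6, picked in the same way, was 1.47-fold and 1.59-fold higher in R26P mutant cerebrum and cerebellum (adjusted p = 0.015 and 0.01), and did not pass in ret mutants (adjusted p = 0.81).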

How the data were processed

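RNA of brain microvascular fragments was measured on 30 Affymetrix mouse arrays of 45101 probe sets. The deposited values are log2 signals, by their range, and R 2.4.1 and GCRMA 2.6.0 are the authors' tools per the submitters' processing notes. GCRMA corrects background by probe sequence, normalizes by quantiles and summarises probe sets. No further transformation was applied. The 24 ret and R26P arrays (35.8% to 37.0% of values at the lowest value) and the 6 wild-type arrays (32.3% to 32.7%) were normalized apart. The array annotation pairs 34958 probe sets with 1 gene, 932 with several and 9211 with none.

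Each comparison used limma 3.58.1 in R 4.3.3 (lmFit, eBayes, two-sided) on the arrays of its own groups, with Benjamini-Hochberg adjustment over the 11243 genes above a log2 signal of 4 on at least 3 arrays. The number of arrays limits precision. The fit was tested on simulated data. Within groups arrays correlated at 0.986 to 0.998 and no 2 were identical. Same-numbered arrays of 2 regions deviated together (correlations 0.344 to 0.84), so the replicate number was taken as the animal there, but mutants and controls share numbers only. With the animal as a block 0 members passed between regions, beside 135 of all tested genes in wild type, 475 in R26P controls and 0 in R26P mutants. Named relatives are the up to 3 members of each family list with the smallest adjusted p in a comparison, or its gene with the highest mean where none passed, and the 2 genes most correlated with each member. The genes and lists were chosen with earlier results of these data known. Alternatives were other filters, probe set means, an intensity trend, renewed quantile normalization, scaling to endothelial markers, 1 fit over all 24 arrays, blocks, covariates and left-out arrays.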

Additional observations from a re-analysis of the deposited data

Results flagged for a closer look

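In 3 of the 48 sets of 4 arrays examined for the members, 1 array stood far from the rest of its group, where chance gives about 1 in 20. Slc7a1 was lowest at 14.78 in R26P control cerebellum 1, and the other arrays of the group reached 15.04. Slc38a3 was lowest at 12.44 in R26P control cerebrum 1, in a group that reached 12.81. Tfrc was lowest at 13.62 in ret control 3, in a group that reached 14.03.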

How the results depend on the processing

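With the signals as deposited and 1 probe set per gene, 2 members passed in ret mutants, 4 in R26P mutant cerebrum, 1 in R26P mutant cerebellum and 0 in the other 5 comparisons. In cerebrum 1 passed without the expression filter, and 1 to 4 when 1 array was left out. In cerebellum 3 passed with the mean of probe sets, 2 with an intensity trend, 5 relative to the endothelial list, 3 with all 24 arrays in 1 fit, 2 with the replicate block (Slc38a5 joining, adjusted p = 0.034), and 0 to 1 when 1 array was left out. In ret mutants 2 to 3 passed when 1 array was left out. For the ret effect against the R26P effect 1 passed with the mean of probe sets. With the replicate block 2 members passed in ret mutants and 3 in cerebrum, but the numbers do not pair mutants with controls (correlations -0.199 to 0.337). Of 1240 member changes under alternatives, 0 reversed a call, 25 lost and 19 gained one, and 70 turned sign with no call on either side. The largest main change to turn sign was 1.12, for Slc16a1 in the ret effect against the R26P effect in cerebrum. In ret mutants Slc38a3 and Tfrc passed under every alternative with more than 1 mutant array, and so did Slc16a1 in R26P mutant cerebrum (adjusted p up to 0.042). The sex covariate used the labels, which went against Xist and Eif2s3y on 4 of 4 ret control arrays. It therefore could not check for sex in the ret comparison. Slc38a5 in cerebrum had an adjusted p of 0.05 with the sex label as a covariate, just over the threshold. Slc16a1 in cerebellum had 0.068 without the expression filter, where Slc2a1 joined (0.033). Counts of all genes ranged from 919 to 2443 in ret mutants (main 1870), 1278 to 3403 in cerebrum (2097), 1081 to 5861 in cerebellum (1758) and 12 to 549 between wild-type regions (238). Pituitary covariates in the R26P model were chosen after seeing the data. Causes of these shifts were not tested.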
